A study of Mus musculus with 2 samples.

Results

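Immediate-early genes are transcribed within minutes of a stimulus and need no newly made protein for it. Growth factors, cytokines and stress act through the mitogen-activated protein kinases (MAPK) on transcription factors already bound at their promoters, and the RNAs that follow are short-lived. In liver these genes are known for their response to partial hepatectomy, to feeding and to injury. The group described here held 10 genes of the 19465 in the deposited tables, found by symbol: the AP-1 subunits Fos, Jun, Junb and Atf3, the zinc-finger transcription factors Egr1 and Klf6, the MAPK phosphatase Dusp1, the early-response genes Ier2 and Ier3, and Phlda1, a pleckstrin homology-like domain protein whose RNA follows growth factor and MAPK signalling. They were selected on the ratio of their RNA between the genotypes, so that ratio is a description here and no test was made of it.

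The data were 2 spatial transcriptomic libraries of mouse liver, with UMI counts (unique molecular identifiers, each standing for 1 captured probe molecule) for small tissue spots that hold several cells each. The AEG-1DMAC library (AEG-1ΔMAC in the study) came from a mouse in which floxed AEG-1, the gene Mtdh, is deleted by Cre expressed from the Lyz2 (LysM) locus in myeloid cells, and the AEG-1fl/fl library came from a floxed mouse without this deletion. Both livers were formalin-fixed and paraffin-embedded and were taken at 27 weeks of age. The labels give both mice a high-fat, high-sugar diet (HF/HSD) from 7 weeks of age, whereas the study's text describes these sections as control-diet livers, so the diet is not settled. With 1 library per genotype, the genotype, the animal and the section cannot be told apart. No p-value is therefore given, and each 95% interval covers counting error only.

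After the study's spot filter, 2140 of 2149 AEG-1DMAC spots and 2540 of 2543 AEG-1fl/fl spots remained, with 45453286 and 50322850 UMIs and medians of 20929.5 and 18285 UMIs per spot. Levels are given as CPM, the UMIs of a gene per 1000000 UMIs of the library. Alb, the albumin gene and the most abundant RNA, took 8.80% of UMIs in the AEG-1DMAC library and 14.2% in the AEG-1fl/fl library, and 6933 genes averaged 10 CPM or more over the libraries. Their median log2 ratio of AEG-1DMAC over AEG-1fl/fl was 0.15, with the middle 90% of genes between -0.29 and 0.54. Mtdh stood at 66.3 and 60.2 CPM, which does not test the deletion, because most RNA of a liver spot comes from hepatocytes. Lyz2 had 25 and 41 UMIs. The summed markers of the study's zone 3 index (Cyp2e1, Cyp1a2 and Oat) had a log2 ratio of 1.29 and 7 other zone 3 landmarks 0.62. Zone 1 markers were mixed. Those of the study's zone 1 index had a summed ratio of 0.24 with 3 of 6 higher in the AEG-1DMAC library. Other zone 1 landmarks had -0.12 with 3 of 8 higher. Neutrophil markers had -1.89 (5.06 against 18.8 CPM), hepatocyte markers -0.51, erythroid markers -0.25 and lymphocyte markers -0.24, while sums for Kupffer cells, sinusoidal endothelium, stellate cells, cholangiocytes and vessel wall lay between -0.04 and 0.15. Single markers did not all follow their sum. In the AEG-1DMAC library 2 of 6 hepatocyte, 3 of 6 lymphocyte and 1 of 5 neutrophil markers were higher. Lymphocyte markers ran from -1.30 to 1.13, and erythroid markers from -3.22 to -0.17. Behind the sums near 0, single cholangiocyte markers ran from -0.91 to 0.31 and sinusoidal endothelium markers from -0.84 to 0.26. Stellate cell markers ran from -0.55 to 0.15, vessel wall markers from -0.24 to 1.47 and Kupffer cell markers from -0.07 to 0.21. The part of these marker differences in the results below was not tested.

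Of the 10 genes, 7 averaged 10 CPM or more, and they went in opposite directions. Phlda1, Dusp1 and Jun were at least 2-fold higher in the AEG-1DMAC library, Egr1 was at least 2-fold lower, and Junb, Ier2 and Klf6 were within 2-fold. Among all 6933 genes, 1.27% passed 2-fold on the higher side and 0.519% on the lower side by the same rule. The ratio was in view when the genes were selected, so nothing is read from these shares. The median log2 ratio of the 7 genes was 0.59, or 0.45 relative to the median of all genes. Fos, Ier3 and Atf3 stayed under 10 CPM. In sections of whole tissue, fewer cells of a type and less RNA per cell cannot be told apart.

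**Figure D1:**
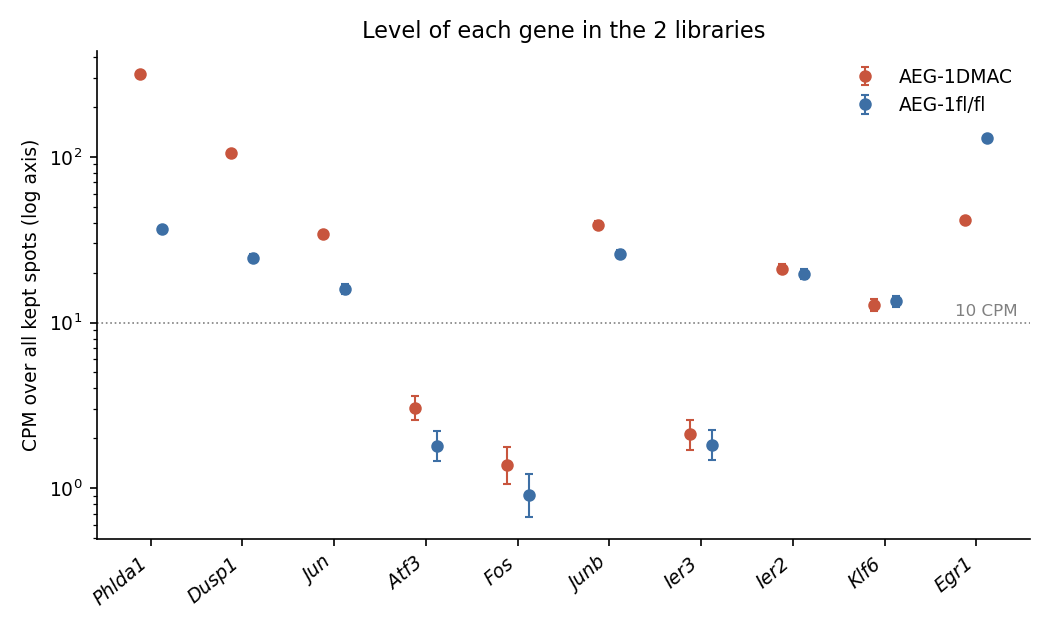
Level of each of the 10 genes in the AEG-1DMAC (red) and AEG-1fl/fl (blue) libraries, in CPM on a log axis, with exact Poisson 95% intervals where they are wider than the points. Genes are ordered by their ratio from Phlda1, 315.4 against 36.7 CPM, to Egr1, 41.7 against 129.0 CPM, and the dotted line marks 10 CPM.

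Phlda1 (chr10:111506286-111508645, mm10) stood furthest apart. It was counted 14334 times in the AEG-1DMAC library and 1847 times in the AEG-1fl/fl library, or 315.4 CPM (310.2 to 320.6) against 36.7 CPM (35.0 to 38.4). This was 8.59-fold higher, a log2 ratio of 3.10 (3.03 to 3.17), and only 5 of the 6933 genes had a higher ratio. Its paralogs Phlda2 and Phlda3, which encode shorter proteins of the same domain, were scarce. Phlda2 had 12 and 15 UMIs, and Phlda3 had 54 and 107 UMIs, in the AEG-1DMAC and AEG-1fl/fl libraries. Their log2 ratios were -0.18 (-1.40 to 1.02) and -0.84 (-1.34 to -0.35), so Phlda3 lay on the other side from Phlda1.

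Dusp1 (chr17:26505590-26562128) encodes a nuclear phosphatase that removes the activating phosphates from p38, JNK and ERK, and is itself induced by the kinases it switches off. Its level was 105.5 CPM from 4795 UMIs in the AEG-1DMAC library and 24.4 CPM from 1230 UMIs in the AEG-1fl/fl library. The log2 ratio was 2.11 (2.02 to 2.20), a 4.32-fold higher level, and 13 genes had a higher ratio.

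Among the AP-1 subunits, which pair through leucine zippers to bind DNA, Jun (chr4:95049034-95052222) differed most. It was at 34.1 CPM from 1550 UMIs in the AEG-1DMAC library and at 16.0 CPM from 806 UMIs in the AEG-1fl/fl library, a log2 ratio of 1.09 (0.97 to 1.21). That value lies close to 2-fold, and under the 3 other library scales tried it lay between 0.95 and 0.97, below 2-fold. Junb, a subunit that can oppose Jun at shared targets, was at 39.0 and 25.9 CPM with a log2 ratio of 0.59 (0.49 to 0.70). The remaining AP-1 genes of the group were scarce. Fos, the classical partner of Jun, had 63 UMIs (1.39 CPM) in the AEG-1DMAC library and 46 UMIs (0.91 CPM) in the AEG-1fl/fl library, with a log2 ratio of 0.60 (0.03 to 1.18). Atf3, a stress-induced member of the ATF branch, had 139 and 91 UMIs (3.06 and 1.81 CPM) and a log2 ratio of 0.76 (0.37 to 1.16). All 4 subunits had ratios above 0, the interval of Fos reaching close to 0, and Jun alone was past 2-fold.

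Egr1, a zinc-finger factor induced through serum response factor and MAPK, went against them. The AEG-1DMAC library held 1894 Egr1 UMIs, or 41.7 CPM (39.8 to 43.6), and the AEG-1fl/fl library held 6493, or 129.0 CPM (125.9 to 132.2). Egr1 was thus 3.10-fold lower in the AEG-1DMAC library, a log2 ratio of -1.63 (-1.71 to -1.56), and only 9 of the 6933 genes had a lower ratio. Klf6, a Krüppel-like factor known in hepatic stellate cells and hepatocytes, was at 12.8 and 13.5 CPM, with a log2 ratio of -0.08 (-0.24 to 0.09). Relative to the median of all genes it stood at -0.22 (-0.38 to -0.06). Its interval excluded a 2-fold difference on either side.

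The early-response genes Ier2, a nuclear protein, and Ier3, a regulator of cell survival, did not share in either direction. Ier2 was at 21.1 and 19.6 CPM from 958 and 988 UMIs, a log2 ratio of 0.10 (-0.03 to 0.23). Ier3 had 96 and 92 UMIs (2.11 and 1.83 CPM), with a log2 ratio of 0.21 (-0.22 to 0.64). Both intervals held 0 and the median of all genes.

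The contrast between Egr1 and the other genes can be stated without any library scale, by counting the UMIs of a gene for each Egr1 UMI in the same library. In the AEG-1fl/fl library Dusp1 had 0.189 UMIs for each Egr1 UMI, Jun had 0.124 and Phlda1 had 0.284. In the AEG-1DMAC library the same values were 2.53, 0.818 and 7.57. Each gene thus had more UMIs per Egr1 UMI in the AEG-1DMAC library. That direction was set by dividing by Egr1, since 6923 of the 6933 genes had a higher ratio between the genotypes than Egr1. The 3.10-fold lower level of Egr1 is part of every quotient, so the quotients are a description only. The quotient of the libraries was 13.4 (12.3 to 14.5) for Dusp1, 6.59 (5.97 to 7.28) for Jun and 26.6 (24.8 to 28.5) for Phlda1. For Junb, Ier2 and Klf6 it was 4.67, 3.32 and 2.94. Counts per Egr1 UMI compare the libraries and not the genes, since probe capture differs between genes.

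Promoter sequence is shown for Dusp1 and Jun, the genes past 2-fold whose RefSeq promoter window was used, and for Fos, the AP-1 partner with the fewest UMIs. The 250 bases before the RefSeq start are given on the strand of the gene, 5′ to 3′, from GRCm38.p6: Dusp1 at chr17:26508473-26508722 (minus strand), Jun at chr4:95052223-95052472 (minus strand) and Fos at chr12:85473640-85473889 (plus strand). The Dusp1 window lies inside the wider span given for that gene above, which is from GENCODE. Capitals mark each match to the cAMP response element TGACGTCA with at most 1 letter changed.
Dusp1: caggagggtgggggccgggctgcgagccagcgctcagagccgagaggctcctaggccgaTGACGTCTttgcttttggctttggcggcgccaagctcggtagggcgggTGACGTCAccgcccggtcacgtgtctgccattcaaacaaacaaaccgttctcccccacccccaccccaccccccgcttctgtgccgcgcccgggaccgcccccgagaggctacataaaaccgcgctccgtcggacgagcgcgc
Jun: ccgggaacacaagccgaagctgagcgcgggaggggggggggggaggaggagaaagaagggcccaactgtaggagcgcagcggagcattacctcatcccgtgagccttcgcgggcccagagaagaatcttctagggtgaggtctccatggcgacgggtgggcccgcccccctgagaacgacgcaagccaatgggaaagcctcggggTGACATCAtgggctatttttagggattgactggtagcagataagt
Fos: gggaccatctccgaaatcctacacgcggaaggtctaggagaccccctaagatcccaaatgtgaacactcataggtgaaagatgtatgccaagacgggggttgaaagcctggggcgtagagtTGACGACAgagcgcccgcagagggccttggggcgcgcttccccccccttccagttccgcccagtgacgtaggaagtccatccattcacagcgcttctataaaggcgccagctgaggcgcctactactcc

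Dusp1 holds the full element TGACGTCA 143 bases before its start and TGACGTCT 191 bases before it. The Jun window holds TGACATCA at 45 bases, and Fos holds TGACGACA at 129 bases, with positions counted from the first letter of each match to the start. RefSeq windows were used for 7 of the 10 genes. Ier2 and Phlda1 had no matched window. Windows of the group on chr18, where Egr1 lies, were left out, so the Egr1 promoter was not searched. Searched on both strands, the full element occurred in 1.55% of 32851 windows of this length and in Dusp1 alone of the 7. With at most 1 letter changed it occurred in 10.6% of all windows and in 5 of the 7, Klf6 (TGACATCA) and Atf3 (TTACGTCA) being the others. The shorter TGACG, which is part of the full element, was in 17.8% of all windows and in Fos, Junb, Dusp1 and Atf3. The CCAAT letters were in 33.8% of all windows and in Jun, Junb, Ier3 and Klf6, the E-box CACGTG in 6.02% and in Dusp1 and Klf6, TATAAA in 12.4% and in Fos, and the NF-kB motif in 5.93% and in Fos and Ier3. The AP-1 letters TGANTCA, the EGR letters GCGNGGGCG, the serum response element and the glucocorticoid response element were in 6.75%, 4.7%, 1.47% and 0.387% of all windows and in none of the 7. These matches describe letters in these windows only.

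To place the genes in the lobule, spots of each library were ranked from periportal (zone 1) to pericentral (zone 3) by the study's zone markers and divided into 3 parts of equal spot number. Zone landmarks left out of that ranking fell on their known side for 8 of 8 zone 1 genes in the AEG-1DMAC library, 7 of 8 in the AEG-1fl/fl library, and all 7 zone 3 genes in both. None of the 7 genes that averaged 10 CPM or more differed by 1.5-fold between the outer parts in both libraries, where 1.94% of all genes were pericentral and 0.939% periportal by that rule. Smaller slopes repeated in both libraries for a pair of genes. Ier2 was periportal, at 22.7 CPM in zone 1 and 18.1 CPM in zone 3 of the AEG-1DMAC library, and at 21.9 and 16.6 CPM in the AEG-1fl/fl library. Its log2 ratios of zone 3 over zone 1 were -0.32 (-0.56 to -0.09) and -0.39 (-0.63 to -0.16), and 5.92% of all genes had both intervals below 0. Phlda1 leaned to zone 3, at 302.6 and 320.0 CPM in the AEG-1DMAC library and at 34.0 and 38.7 CPM in the AEG-1fl/fl library. Its log2 ratios were 0.08 (0.02 to 0.14) and 0.19 (0.02 to 0.35), and 19.3% of all genes had both intervals above 0, so a slope on this side was common.

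Egr1 was highest in the middle of the ranking in the AEG-1fl/fl library and at its pericentral end in the AEG-1DMAC library. Over 10 equal bins of the ranking, its level in the AEG-1fl/fl library went from 109.5 CPM at the periportal end to 155.1 CPM in bin 7 and down to 91.5 CPM at the pericentral end. In the AEG-1DMAC library it stayed between 35.9 and 42.4 CPM over the first 8 bins and was 46.4 and 59.4 CPM in bins 9 and 10. The log2 ratio between the genotypes was -2.05 (-2.29 to -1.81) in bin 6 and -0.62 (-0.86 to -0.39) in bin 10. These bins hold equal shares of each library's spots. A bin need not be the same position in both, because the zone content of each section was not measured apart from expression. With bins cut at index values shared by the libraries, an alternative added after the data were seen, the ratios were -1.82 in bin 6 and -0.64 in bin 10, and with shared cuts of an index from landmark genes they were -2.14 and -0.82. The difference was thus smallest at the pericentral end under each of these rankings. Between the outer parts, Egr1 had a log2 ratio of 0.29 (0.13 to 0.45) in the AEG-1DMAC library and of 0.04 (-0.05 to 0.13) in the AEG-1fl/fl library, whose peak lay between them. The AEG-1fl/fl value depended on the ranking, at 0.21 with landmark genes and -0.26 between the outer 10% of spots, where the AEG-1DMAC library had 0.35 and 0.63.

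**Figure D2:**
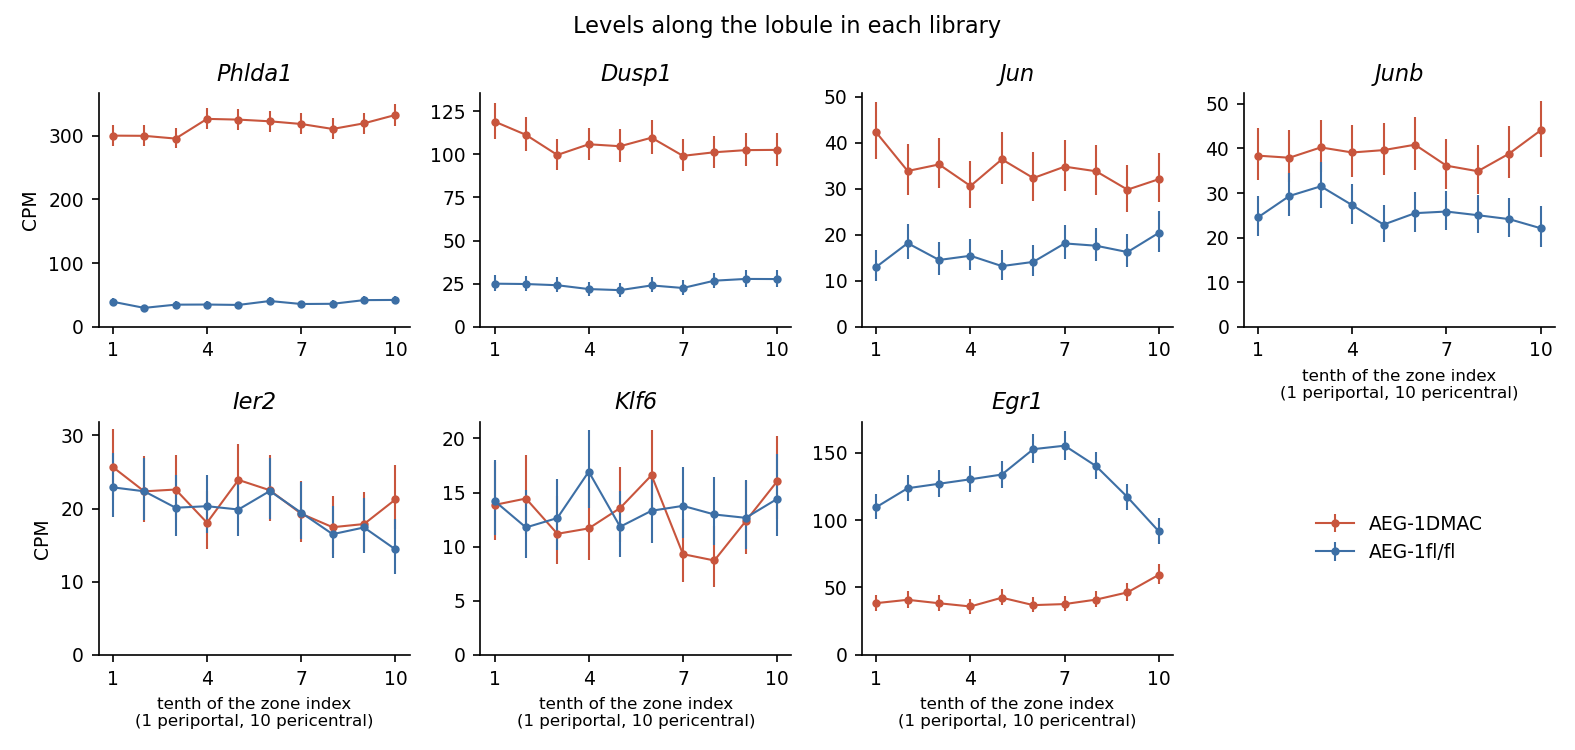
CPM of the 7 genes that averaged 10 CPM or more, in 10 equal bins of spots from periportal (1) to pericentral (10), in the AEG-1DMAC (red) and AEG-1fl/fl (blue) libraries, with exact Poisson 95% intervals and y axes that start at 0. Phlda1, Dusp1 and Jun lie higher in the AEG-1DMAC library in every bin, and Egr1 lies lower in every bin, with a peak of 155.1 CPM in bin 7 of the AEG-1fl/fl library.

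Jun and Dusp1 had small slopes of opposite sign in the 2 libraries. Jun was at 36.7 CPM in zone 1 and 32.4 CPM in zone 3 of the AEG-1DMAC library, a log2 ratio of -0.18 (-0.36 to -0.00), and at 15.2 and 18.6 CPM in the AEG-1fl/fl library, a log2 ratio of 0.29 (0.04 to 0.54). Dusp1 was at 110.2 and 101.2 CPM in the AEG-1DMAC library, a log2 ratio of -0.12 (-0.22 to -0.02), and at 24.2 and 26.7 CPM in the AEG-1fl/fl library, where the interval of -0.06 to 0.34 held 0. Junb went from 28.4 to 23.7 CPM in the AEG-1fl/fl library (-0.26, -0.46 to -0.07) and from 39.4 to 38.5 CPM in the AEG-1DMAC library (-0.03, -0.20 to 0.14), with intervals that overlap. Klf6 had none in either library, at -0.12 (-0.42 to 0.18) and 0.08 (-0.20 to 0.36).

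The direction of each large difference between the genotypes held in every part of the lobule. From zone 1 over the middle to zone 3, Phlda1 had log2 ratios of 3.15, 3.11 and 3.05, and Dusp1 had 2.19, 2.22 and 1.92. Jun had 1.27, 1.21 and 0.80, so it was past 2-fold in the zone 1 and middle parts and below 2-fold in zone 3. Egr1 had -1.60, -1.94 and -1.34. With index values shared by both libraries, 43.7% of AEG-1DMAC spots and 24.6% of AEG-1fl/fl spots fell in zone 3. The zone 3 markers of that index were themselves higher in the AEG-1DMAC library (log2 ratio 1.29). These shares therefore cannot tell a larger pericentral area from a higher level of the markers. The study reports no significant difference in the number of hepatocytes per zone. When zones cut at shared values were weighted equally, Egr1 stood at -1.63, Dusp1 at 2.10, Jun at 1.08 and Phlda1 at 3.07 on the log2 scale.

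**Figure D3:**
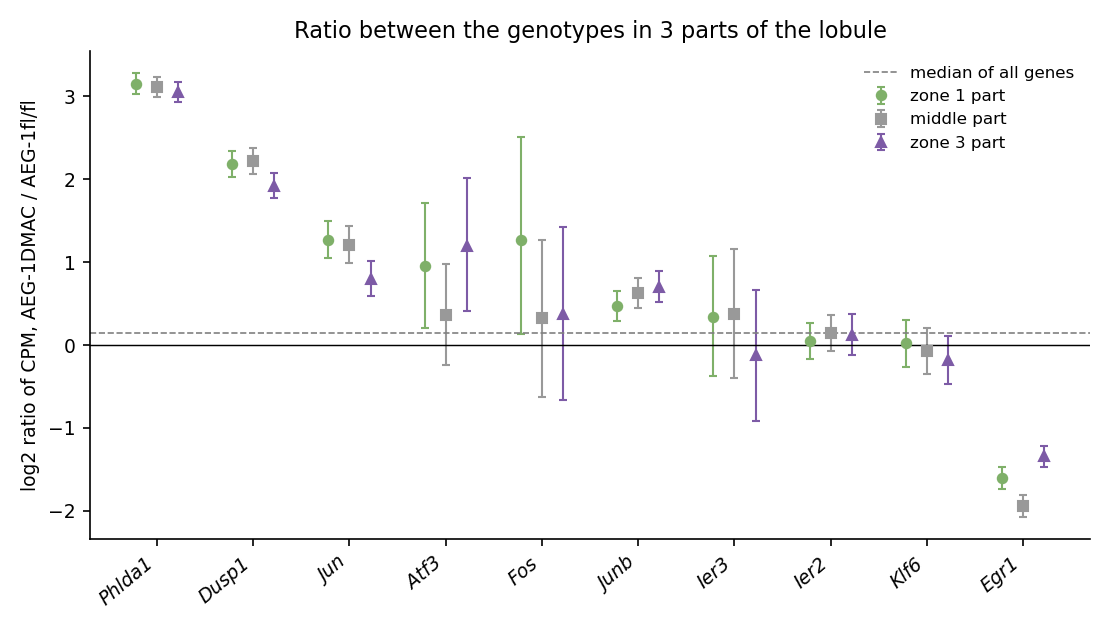
Log2 ratio of CPM, AEG-1DMAC over AEG-1fl/fl, for each gene in the zone 1 (circles), middle (squares) and zone 3 (triangles) parts, with exact 95% intervals for counting error. The dashed line is the median of all genes, 0.15, and Egr1 alone has intervals below 0 in all 3 parts.

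Spot by spot, the differences lay across the sections and not in a few rich spots. When every spot was thinned to 10000 UMIs, which left 2114 AEG-1DMAC and 2434 AEG-1fl/fl spots and dropped 26 and 106 shallower ones, Phlda1 was in 95.4% (exact binomial 94.4 to 96.3) of spots of the first and 29.2% (27.4 to 31.1) of the second. Dusp1 was in 64.8% and 22.2% of spots, and Jun in 28.4% and 14.7%. Egr1 ran the other way, in 34.1% (32.0 to 36.1) and 70.3% (68.4 to 72.1). Unthinned, these shares were 99.2% and 50% for Phlda1, 86.7% and 37.1% for Dusp1, 48.9% and 25.9% for Jun, and 56.3% and 85.4% for Egr1. Of 11 genes not made in liver, the highest share at 10000 UMIs was 2.08% (Tnnt2) in the AEG-1DMAC library, where the other 10 reached at most 0.378%, and 0.534% (Gfap) in the AEG-1fl/fl library. Fos and Ier3, each in 1.84% of AEG-1DMAC spots, lay under the Tnnt2 share and above that of the other 10, and Atf3 was in 3.31%. In the AEG-1fl/fl library Fos, Ier3 and Atf3 were in 0.822%, 2.10% and 1.73% of spots, above all 11 genes.

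**Figure D4:**
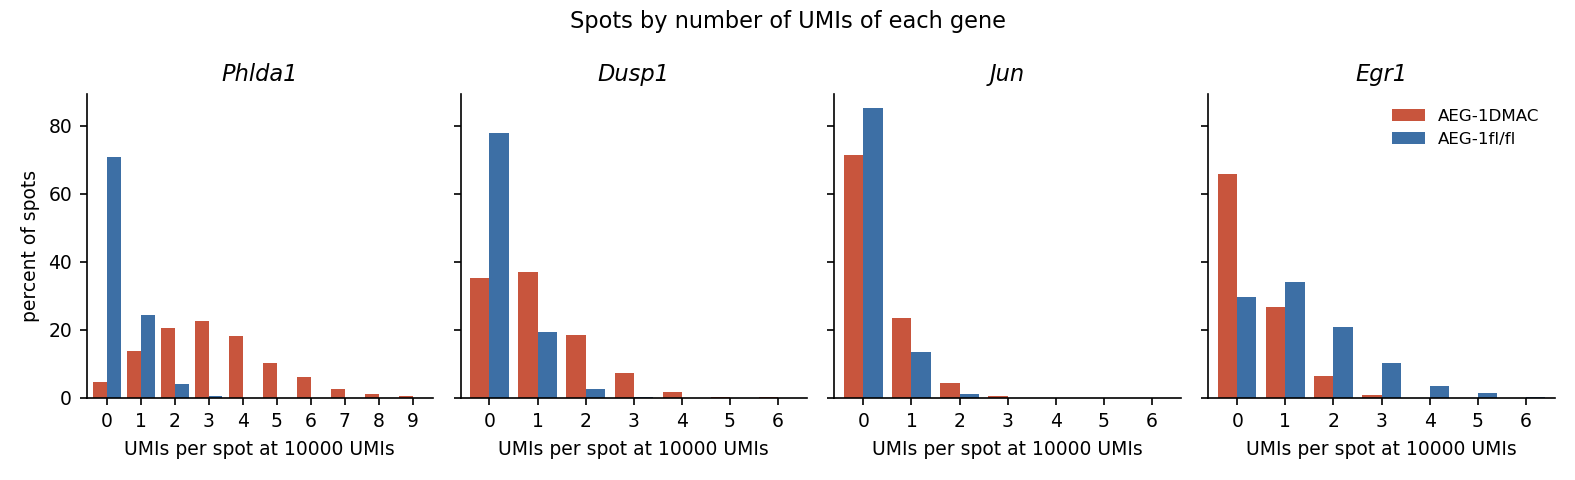
Percent of spots with each number of UMIs of Phlda1, Dusp1, Jun and Egr1 after thinning every spot to 10000 UMIs, in the AEG-1DMAC (red) and AEG-1fl/fl (blue) libraries, without the few spots of higher counts than the axis shows. The distribution lies higher for Phlda1 and Dusp1, and lower for Egr1, in the AEG-1DMAC library, where 95.4% of spots held Phlda1 and 34.1% held Egr1.

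The spread over spots was close to that of counting alone. The variance of the thinned counts over their mean lay between 0.98 and 1.03 for the 7 genes in both libraries, except for Egr1 in the AEG-1fl/fl library, where it was 1.13 overall and 1.11 within bins of the zone ranking. Genes of like level in that library had a median of 1.02. Without the 1% of spots richest in each gene, Phlda1 kept a log2 ratio of 3.15 and Egr1 one of -1.66. Egr1 and Dusp1 were found together in 22.4% of AEG-1DMAC spots, where the product of their shares was 22.1%, and in 15.1% of AEG-1fl/fl spots, where it was 15.6%. Over spots the 21 pairs of the 7 genes correlated between -0.05 and 0.06 (Pearson r of log counts, spots of a section sharing their library), and 11 pairs had the same sign in both libraries. The 3 genes most like each of the 7 had r of 0.04 to 0.10 over both libraries. The highest were those of Klf6 (Tagln, Spp1 and H2-Eb1, 0.07 to 0.10). Tagln belongs to the vessel wall markers and Spp1 to the cholangiocyte markers by which spots are sorted below. In counts this sparse nothing more is read from such values.

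Klf6 was higher in spots rich in vessel wall, cholangiocyte or stellate cell markers in both libraries. In the 10% of spots richest in vessel wall markers it was at 20.8 CPM against 11.8 CPM in the other AEG-1DMAC spots, and at 19.5 against 12.8 CPM in the AEG-1fl/fl library. The log2 ratios were 0.82 (0.48 to 1.13) and 0.61 (0.28 to 0.92). Klf6 alone of the 7 genes was at least 1.5-fold higher in such spots in both libraries, against 1.31% of all genes. In spots rich in cholangiocyte markers it had 0.82 (0.49 to 1.15) and 0.58 (0.26 to 0.89), just under 1.5-fold in the AEG-1fl/fl library, and 0 of the 7 genes were called against 1.53% of all genes. In stellate cell-rich spots it had 0.53 (0.16 to 0.88) and 0.43 (0.06 to 0.77). Kupffer cell-rich spots gave -0.06 (-0.50 to 0.36) and 0.51 (0.16 to 0.84), and sinusoidal endothelium-rich spots 0.39 (0.00 to 0.76) and 0.00 (-0.42 to 0.40). No member was called in spots rich in Kupffer cell, sinusoidal endothelium or stellate cell markers, against 0.736%, 0.0578% and 0.476% of all genes.

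Egr1 was lower in AEG-1fl/fl spots rich in cholangiocyte, vessel wall or Kupffer cell markers, and slightly lower in those rich in stellate cell markers. Its intervals in the AEG-1DMAC library held 0. The difference between the libraries was not tested. It was at 88.6 CPM in cholangiocyte-rich spots against 133.8 CPM in the others, a log2 ratio of -0.59 (-0.73 to -0.46), where the AEG-1DMAC library had 40.7 against 41.8 CPM (-0.04, -0.27 to 0.19). In vessel wall-rich spots the values were -0.44 (-0.57 to -0.30) and 0.14 (-0.08 to 0.35). In Kupffer cell-rich spots they were -0.43 (-0.58 to -0.29) and -0.18 (-0.43 to 0.06). Stellate cell-rich spots of the AEG-1fl/fl and AEG-1DMAC libraries had -0.15 (-0.29 to -0.02) and 0.05 (-0.17 to 0.28). Sinusoidal endothelium-rich spots had 0.01 (-0.12 to 0.13) and -0.09 (-0.33 to 0.14). Leaving out the spots rich in vessel wall or cholangiocyte markers gave Egr1 a log2 ratio between the genotypes of -1.71, Dusp1 one of 2.15 and Phlda1 one of 3.11.

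Around these genes, 116 other early-response and MAPK pathway genes were listed, 108 of them in the tables and 72 averaging 10 CPM or more. Of the 72, 12 passed 2-fold with a higher level in the AEG-1DMAC library and 1 with a lower level, against 1.27% and 0.519% of all genes. The lists were made with results of these data known, so nothing is read from the difference. Their median log2 ratio was 0.24 against 0.15 over all genes. The highest was Myc, the growth-promoting transcription factor, at 37.8 against 4.49 CPM (3.07). Plk3, a stress-response kinase, was at 62.9 against 11.1 CPM (2.50), and Errfi1, a feedback inhibitor of the EGF receptor, at 1525 against 376.0 CPM (2.02). Csrnp1, a nuclear factor induced by axin and immediate-early signals, had a log2 ratio of 1.93, Pim3, a survival kinase, 1.69, and Socs3, the feedback inhibitor of cytokine signalling, 1.53. Klf10 and Cebpb, transcription factors of the TGF-beta response and of the acute phase, had 1.26 and 1.22. Bhlhe40, Zfp36l2, Spry4 and Cebpd were the other 4. Plk2, another kinase of the polo family and the gene that was lower, was at 13.0 against 29.9 CPM (-1.20).

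By list, the 28 tested genes of no single family held most of those called, with 9 higher and 1 lower. Of 9 tested MAPK feedback genes 2 were higher, Errfi1 and Spry4. Some paralogs of Dusp1 in that list averaged under 10 CPM and were not called. Dusp4 had 438 and 153 UMIs in the AEG-1DMAC and AEG-1fl/fl libraries (1.66, 1.40 to 1.94), and Dusp2 had 110 and 51 (1.26, 0.76 to 1.76). Dusp5 had 53 and 76 UMIs (-0.37, -0.91 to 0.15), Dusp8 had 37 and 37, and Dusp14 had 1 and 0. Of the 7 tested Krüppel-like factors other than Klf6, 1 was called and 6 lay above the median of all genes, with a median of 0.60 where Klf6 had -0.08. None of the 5 tested AP-1 genes, the 7 tested genes of the serum response factor pathway or the 15 tested kinases and receptors of the MAPK cascade was 2-fold apart, and the cascade lay between -0.16 and 0.53. Nab2, a co-repressor that Egr1 binds and induces, was the only tested gene of the EGR and NR4A list, at 22.2 CPM in both libraries (-0.00, -0.13 to 0.12). The paralogs Egr2, Egr3 and Egr4 had 6, 8 and 0 UMIs in the AEG-1DMAC library and 8, 7 and 0 in the AEG-1fl/fl library. Nr4a1, an orphan receptor induced with Egr1 in many cells, had 105 and 95 UMIs, and Fosb had 13 and 12. Egr1 was thus the one gene of its family with a level that could be compared.

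**Figure D5:**
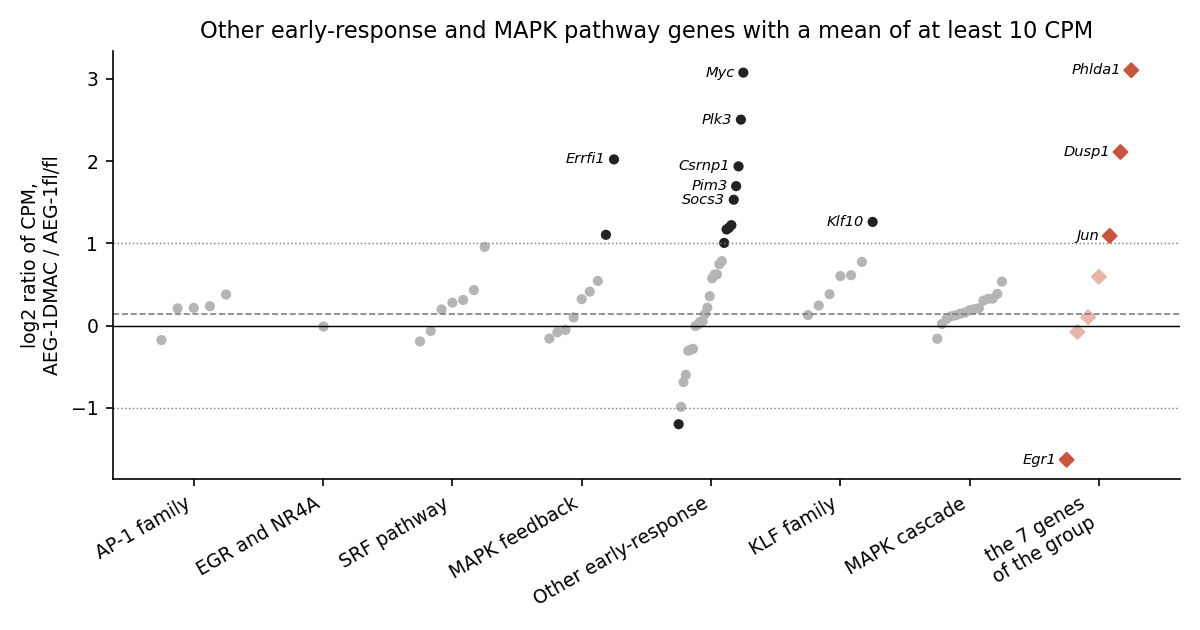
Log2 ratio of CPM, AEG-1DMAC over AEG-1fl/fl, for the 72 other early-response and MAPK pathway genes that averaged 10 CPM or more, by list (circles, black where at least 2-fold apart), and for the 7 genes of the group (diamonds, dark red where at least 2-fold apart). Dotted lines mark 2-fold, the dashed line the median of all genes, and Egr1 lies lowest at -1.63.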

How the data were processed

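The authors deposited raw UMI counts per gene and spot for 2 FFPE Visium sections of mouse liver, made with Space Ranger (2.0.1) on mm10, and the submitters' notes also name Seurat (4.3.0). The probe kit reads fixed probe pairs, so levels were not compared between genes. Spots with at most 50000 UMIs and 100 to 7000 genes were kept, as in the study. From the counts, CPM, log2 ratios with exact conditional binomial 95% intervals, exact Poisson intervals for levels and exact binomial intervals for shares of spots were computed with Python (3.11.15), NumPy (2.4.6), SciPy (1.17.1) and pandas (2.3.3), after the ratio code was tested on simulated data. All intervals and floors cover counting error only. With 1 library per genotype no test across genes was run. A gene was called between the genotypes at a mean of at least 10 CPM, a ratio of at least 2 and an interval on the same side of 1. Calls between parts of the lobule and between kinds of spots needed 1.5-fold in both libraries. Spots were thinned to 10000 UMIs with a fixed seed, no doublet caller was run because spots hold several cells, and all deposited spot barcodes were used (1782 occur in both libraries, as positions of the same array design).

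The text names the 10 genes, Mtdh, Lyz2 and Alb, up to 8 genes on each side of the wider lists past 2-fold, and up to 3 genes most like a member over spots. Bhlhe40, Zfp36l2, Spry4, Cebpd and the scarce paralogs named with UMI counts were added after their values were seen. The members and all lists were chosen with earlier results of these data known. Coordinates of genes are from GENCODE on GRCm38, and promoter windows from RefSeq, GRCm38.p6. Alternatives were other library scales (TMM, median-of-ratios, total without the 50 most abundant genes), other spot sets, zone rankings, thresholds and depths.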

Additional observations from a re-analysis of the deposited data

Results flagged for a closer look

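Jun, the AP-1 subunit, sloped along the lobule in opposite directions in the 2 libraries. Its log2 ratio of zone 3 over zone 1 was -0.18 in the AEG-1DMAC library and 0.29 in the AEG-1fl/fl library. Both intervals were off 0, that of the AEG-1DMAC library only just (-0.36 to -0.00). Between the outer 10% of spots at each end the values were -0.40 and 0.65. With a ranking from landmark genes they were -0.16 and 0.15. No interval is given for these alternatives, so being off 0 holds for the main ranking only. With 1 section per genotype the difference was not tested.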

How the results depend on the processing

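No called ratio between the genotypes changed sign under the alternatives run. The median of all genes was 0.00, 0.02 and 0.02 without the 50 most abundant genes, with TMM and with median-of-ratios factors, against 0.15 with CPM. Under these 3 scales 2 genes of the group were at least 2-fold higher in place of 3, Jun being the one lost at 0.95, 0.97 and 0.96, and the wider lists held 10 genes at least 2-fold higher in place of 12, without Cebpd and Spry4 (0.86 and 0.96 relative to the median of all genes), and 2 lower in place of 1. In cholangiocyte-rich spots 1 gene of the group was at least 1.5-fold higher in place of 0 when the richest 5% of spots were taken or when spots were compared inside each part of the lobule. Over 9 alternatives the log2 ratio ranged from 2.96 to 3.15 for Phlda1, 1.97 to 2.16 for Dusp1, 0.95 to 1.15 for Jun, 0.45 to 0.62 for Junb and -1.77 to -1.62 for Egr1. Fos ranged from 0.39 to 1.35, and Ier2 (-0.04 to 0.18) and Ier3 (-0.00 to 0.27) held both signs. Of the 90 values of single ratios 71 kept within their counting interval, as did 49 of 60 slopes. No slope reached 1.5-fold in both libraries. Between the outer 10% of spots, the slope of Egr1 in the AEG-1fl/fl library changed sign (0.04 to -0.26). In the AEG-1DMAC library those of Junb (-0.03 to 0.20) and Klf6 (-0.12 to 0.21) did so. The scarce Ier3 and Atf3 changed sign in both libraries. Ier3 went from -0.45 to 0.77 in the AEG-1DMAC library and from 0.02 to -0.36 in the AEG-1fl/fl library. Atf3 went from 0.01 to -0.11 and from -0.23 to 0.90. All 40 shares of spots moved with the depth they were taken at. At 10 CPM a gene had 454.5 and 503.2 UMIs, and Fos, Ier3 and Atf3 lay below it. No paired analysis was possible because each genotype has 1 library.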
